A study of Mus musculus with 21 samples.

Results

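The proteasome genes of the mouse brain were described in senescence-accelerated mouse prone 8 (SAMP8) mice, a strain that ages early and develops memory deficits. The members were the rows of the deposited gene table whose symbol begins with Psma, Psmb, Psmc or Psmd followed by a digit, without the immunoproteasome subunits Psmb8, Psmb9 and Psmb10. This left 36 of 16318 genes, of which 15 are core members (Psma and Psmb) and 21 are regulatory members (Psmc and Psmd). Whole-brain RNA came from 21 SAMP8 mice with 1 library per mouse. HsTX1[R14A], a peptide that blocks the voltage-gated potassium channel Kv1.3, was given to 3 females and 6 males at 1 mg/kg by subcutaneous injection every other day for 8 weeks, starting at 4 months of age, and phosphate-buffered saline (PBS) was given in the same way to 6 females and 6 males. All groups were of the SAMP8 strain, no library of the resistant control strain SAMR1 was analysed here, and the peptide reached the whole animal rather than a chosen cell type.

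The proteasome is the cell's main machine for breaking down proteins that carry a ubiquitin tag. Its core particle is a barrel of stacked rings, in which outer alpha rings act as a gate and inner beta rings carry the proteolytic sites, and its regulatory particle consists of a base with a ring of ATPases that unfold the substrate and a lid that removes the ubiquitin. Neurons depend on it to clear damaged proteins and to remodel synapses, and the transcription factor Nfe2l1 is known to raise the subunit genes together when proteasome activity falls.

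Library totals ranged from 14917174 to 47613792 counts. Levels are given in CPM (a count as a share of its library total), with libraries scaled by the trimmed mean of M values (TMM). The label of brain tissue was checked with marker lists, and summed levels ran from 3327 to 7064 CPM over 5 neuron genes, from 1229 to 2073 CPM over 4 astrocyte genes and from 3055 to 6265 CPM over 4 oligodendrocyte genes. The PBS mice 90 (male) and 103 (female) stood apart from the others, with the highest shares of core counts. The libraries also differed in how counts depended on transcript length. This was measured as the slope, in each library, of a gene's log2 CPM (centered on its mean over the 21 mice) on the log2 length of its longest annotated transcript. The slope ran from -0.384 to 0.147 in PBS mice (median -0.023) and from -0.142 to 0.234 in HsTX1[R14A] mice (median 0.150), with the lowest values in PBS mice 103 and 90. The names of the libraries in the deposited table take the form SAMP8 for 10 PBS and 5 HsTX1[R14A] mice and the form SAMP for 2 PBS and 4 HsTX1[R14A] mice, and what this difference stands for is not given in the sources used here.

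With sex in the model, core genes fell in HsTX1[R14A]-treated brains in 8 of 15 cases and none rose. With the length slope added, 0 core genes were called, beside 0% of all genes. Regulatory genes were called in both directions, 6 lower and 2 higher of 21, beside 16.1% and 15.5% of all genes. All 36 members passed the filter on low counts. Between treatments 16 of the 36 passed the threshold, a false discovery rate (FDR) of at most 0.05 over all genes (edgeR's quasi-likelihood test with sex in the model, Benjamini-Hochberg adjustment), of which 14 were lower and 2 higher with HsTX1[R14A]. Over the 16303 genes tested 31.6% passed, with 15.5% higher and 16.1% lower. Of all genes tested 7562 had an unadjusted p under 0.05. Of the 15 core members 8 were called (11 had an unadjusted p under 0.05, all of them below 0, and limma/voom and DESeq2 also called 8). The fold change (HsTX1[R14A] over PBS, log2) was below 0 for all 15, from -0.51 to -0.25, with a median of -0.39. Of the 21 regulatory members 6 fell and 2 rose, 17 had a log2 fold change below 0, and the median was -0.19. Across all genes the median was -0.01 and 51.4% of genes were below 0. Since the RNA came from whole brain, fewer cells of a type and less RNA per cell cannot be told apart.

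The calls depended on the mice and the model. With 1 mouse left out at a time the number of core members called ran from 3 to 10 and of regulatory members from 3 to 13, while the share of all genes called ran from 14% without PBS mouse 90 to 40.6% without HsTX1[R14A] mouse 93. It was 3 in the core without each of PBS mice 73, 90 and 101 and HsTX1[R14A] mice 71, 72, 74, 81, 88 and 98, 5 without PBS mouse 91 and 10 without HsTX1[R14A] mouse 93. In the regulatory class it was 3 without PBS mouse 90, 4 without each of HsTX1[R14A] mice 71, 88 and 98, 5 without each of PBS mouse 101 and HsTX1[R14A] mice 74 and 81, 12 without PBS mouse 84 and 13 without HsTX1[R14A] mouse 93. Psma1, Psma4, Psmb2, Psmc6, Psmd11 and Psmd12 passed in all 21 of these fits, and all 15 core members were below 0 in each. With PBS mice 90 and 103 both left out, a setting chosen after seeing the data, 3 core and 4 regulatory members were called beside 17.7% of all genes, and all 15 core members stayed below 0 with a median of -0.23. With the form of the library name as a covariate 3 core and 3 regulatory members were called, beside 12.3% of all genes. When the length slope was added to the model 0 members were called by edgeR (4 had an unadjusted p under 0.05), and so was 0% of all genes. The core median then turned to 0.07 and the regulatory median to 0.06, with 4 of 15 core and 6 of 21 regulatory members below 0.

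**Figure D1:**
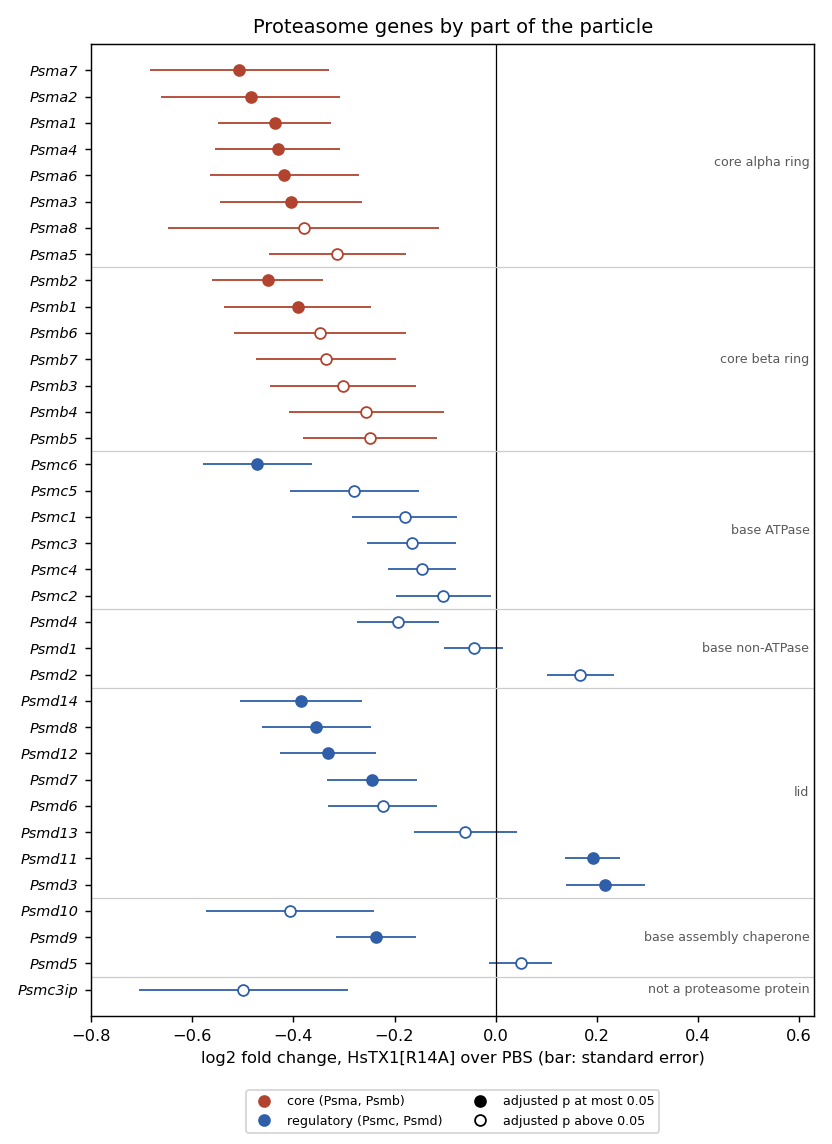
Each point is the log2 fold change between HsTX1[R14A] (n = 9) and PBS (n = 12) for 1 member, with its standard error, on the x axis, and members are grouped by part of the proteasome on the y axis (filled: adjusted p at most 0.05). All 15 core members (red) lie left of 0, while the regulatory members (blue) run from -0.50 in Psmc3ip to 0.22 in Psmd3.

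Upstream sequences were searched for letters that known regulators of these genes bind. RefSeq promoter windows (GRCm38.p6, from 250 bases before to 50 bases after the annotated start) matched 29 members, 11 core and 18 regulatory, by symbol. These members had 31 windows, and a gene was counted if any of its windows held the letters. The letters CCGGAAG, which ETS family factors are known to bind, were found on either strand in 10 of the 18 regulatory genes (Psmc1, Psmc2, Psmc3ip, Psmc6, Psmd2, Psmd4, Psmd6, Psmd11, Psmd12 and Psmd13) and in 1 of the 11 core genes (Psma6), beside 9.93% of the 27025 genes with a window. The letters TGACNNNGC, the core of the antioxidant response element to which Nfe2l1 and Nfe2l2 bind, were found in the core genes Psmb5 and Psmb6 and in the regulatory genes Psmc6, Psmd9 and Psmd12, which is 17.2% of the member genes beside 13.99% of all genes. CCAAT boxes stood in 12 of the 29 genes (41.4%), beside 41.1% of all genes. In Psma6 the CCGGAAG matches and the CCAAT boxes lay in different windows. These counts are a description and were not tested, the CCGGAAG and TGACNNNGC matches of Psmc6 do not share bases, and a match is not evidence of binding.

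Upstream bases are shown for 6 members that differ in both respects, written 5′ to 3′ on the strand of the gene, without bases that the GENCODE annotation places inside the gene. Capitals mark CCGGAAG or TGACNNNGC on either strand. Psma1 (chr7:114276119-114276366, minus strand) and Psmd11 (chr11:80428365-80428614, plus strand) are a core gene that fell and a lid gene that rose. Psmb5 (chr14:54618023-54618245, minus strand) and Psmb6 (chr11:70525107-70525356, plus strand) encode catalytic subunits and carry the antioxidant response element core. Psmc6 (chr14:45329574-45329787, plus strand) carries both kinds of match, and Psmd4 (chr3:95042615-95042864, minus strand) carries CCGGAAG.
Psma1: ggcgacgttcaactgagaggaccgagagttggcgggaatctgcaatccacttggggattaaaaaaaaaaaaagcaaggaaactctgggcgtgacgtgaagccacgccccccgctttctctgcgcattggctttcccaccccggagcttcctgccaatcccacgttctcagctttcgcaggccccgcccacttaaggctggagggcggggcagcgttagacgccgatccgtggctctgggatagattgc
Psmb5: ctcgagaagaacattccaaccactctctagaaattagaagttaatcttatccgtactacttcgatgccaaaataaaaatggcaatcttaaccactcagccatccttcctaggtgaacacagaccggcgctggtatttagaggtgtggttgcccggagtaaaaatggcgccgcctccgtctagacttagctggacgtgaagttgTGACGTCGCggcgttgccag
Psmb6: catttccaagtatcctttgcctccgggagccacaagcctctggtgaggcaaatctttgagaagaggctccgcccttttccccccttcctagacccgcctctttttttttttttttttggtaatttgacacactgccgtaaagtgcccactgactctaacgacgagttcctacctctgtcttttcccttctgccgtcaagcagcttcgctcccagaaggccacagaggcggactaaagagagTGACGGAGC
Psmc6: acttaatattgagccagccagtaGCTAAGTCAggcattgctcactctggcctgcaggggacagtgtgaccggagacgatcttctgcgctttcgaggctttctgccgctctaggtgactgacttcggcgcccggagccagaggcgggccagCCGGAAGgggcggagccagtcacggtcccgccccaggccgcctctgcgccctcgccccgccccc
Psmd4: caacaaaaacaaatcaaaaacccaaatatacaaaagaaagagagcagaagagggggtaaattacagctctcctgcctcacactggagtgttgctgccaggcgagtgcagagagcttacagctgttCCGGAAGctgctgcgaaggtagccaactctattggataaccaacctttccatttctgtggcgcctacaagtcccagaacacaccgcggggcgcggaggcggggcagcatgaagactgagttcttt
Psmd11: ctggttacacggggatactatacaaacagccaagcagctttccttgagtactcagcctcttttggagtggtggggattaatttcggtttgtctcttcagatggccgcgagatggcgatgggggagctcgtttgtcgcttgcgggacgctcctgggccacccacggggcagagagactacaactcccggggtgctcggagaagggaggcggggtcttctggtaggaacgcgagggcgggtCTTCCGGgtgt

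Genes of the alpha ring, the gate of the core particle, were lower with HsTX1[R14A] in 6 of 8 cases (Psma1, Psma2, Psma3, Psma4, Psma6 and Psma7), beside 16.1% of all genes. Psma1 (ENSMUSG00000030751, GRCm38 chromosome 7 from 114264606 to 114276118) ranged from 55.7 to 109 CPM in PBS mice (median 72.5) and from 49.1 to 72.3 CPM in HsTX1[R14A] mice (median 52.9). All 9 HsTX1[R14A] mice lay below the PBS median, although the ranges overlapped. The log2 fold change was -0.44 (standard error, SE, 0.11, edgeR adjusted p = 0.0171). Psma4, whose tail is known to help close the gate, ranged from 69.0 to 144 CPM with PBS (median 92.0) and from 62.2 to 99.6 CPM with HsTX1[R14A] (median 67.5), a log2 fold change of -0.43 (SE 0.12, edgeR adjusted p = 0.0208). For this gene 8 of the 9 treated mice lay below the PBS median.

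Psma7 had the lowest fold change of the core, with 61.8 to 168 CPM in PBS mice (median 91.4) and 45.3 to 111 CPM in HsTX1[R14A] mice (median 66.8). Its log2 fold change was -0.51 (SE 0.18, edgeR adjusted p = 0.0364). In Psma7 8 of the 9 treated mice lay below the PBS median. Psma3 ranged from 75.2 to 169.5 CPM with PBS (median 97.9) and from 65.7 to 118 CPM with HsTX1[R14A] (median 75.6), a log2 fold change of -0.40 (SE 0.14, edgeR adjusted p = 0.0357). Psma2 (log2 fold change -0.48, adjusted p = 0.0428) and Psma6 (-0.42, adjusted p = 0.0377), structural subunits of the same ring, passed the threshold as well. Psma5 had a log2 fold change of -0.31 and did not pass (adjusted p = 0.0755). Psma8, a testis form that replaces Psma7 in germ cells, was low in the brain, at 0.183 to 0.993 CPM in PBS mice and 0.155 to 0.593 CPM in HsTX1[R14A] mice.

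In the beta ring 2 of 7 genes fell, beside 16.1% of all genes. These were Psmb2 and Psmb1, which encode structural subunits without a proteolytic site. Psmb2 (ENSMUSG00000028837, GRCm38 chromosome 4 from 126677630 to 126709714) had the smallest p of the core. It ranged from 49.4 to 94.9 CPM in PBS mice (median 64.0) and from 44.2 to 67.9 CPM in HsTX1[R14A] mice (median 49.9), and 8 of the 9 treated mice lay below the PBS median. The log2 fold change was -0.45 (SE 0.11, edgeR adjusted p = 0.0163). Psmb1 had a log2 fold change of -0.39 (adjusted p = 0.0446).

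None of the 3 genes for the catalytic subunits passed the threshold with edgeR, limma/voom or DESeq2 on all mice. Psmb7 alone had an unadjusted p under 0.05 in edgeR, and it passed in at least 1 fit that left out 1 mouse. Psmb5 and Psmb6 passed in none of the 37 alternative fits. Psmb5, which carries the chymotrypsin-like site and the target of proteasome inhibitors such as bortezomib, ranged from 51.4 to 104 CPM with PBS (median 63.8) and from 38.6 to 75.6 CPM with HsTX1[R14A] (median 53.9). Its log2 fold change of -0.25 was the closest to 0 in the core (SE 0.13, edgeR adjusted p = 0.141). Psmb6, the caspase-like subunit, ranged from 65.1 to 197 CPM (median 95.9) and from 64.1 to 121 CPM (median 81.6), a log2 fold change of -0.35 (SE 0.17, edgeR adjusted p = 0.113). For Psmb6 the top of the PBS range came from mouse 103, and the next PBS mouse, mouse 90, had 141 CPM. Psmb7, the trypsin-like subunit, ranged from 95.1 to 197 CPM (median 121) and from 74.9 to 144 CPM (median 97.7), with a log2 fold change of -0.34 (SE 0.14, edgeR adjusted p = 0.0649). In GRCm38 the last exons of Psmb7 share 405 bases with Nek6 on the opposite strand, and processed pseudogenes of Psmb5, Psmb6 and Psmb7 are annotated, so their counts are less certain. The structural subunits Psmb3 (log2 fold change -0.30, adjusted p = 0.106) and Psmb4 (-0.26, adjusted p = 0.19) did not pass.

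**Figure D2:**
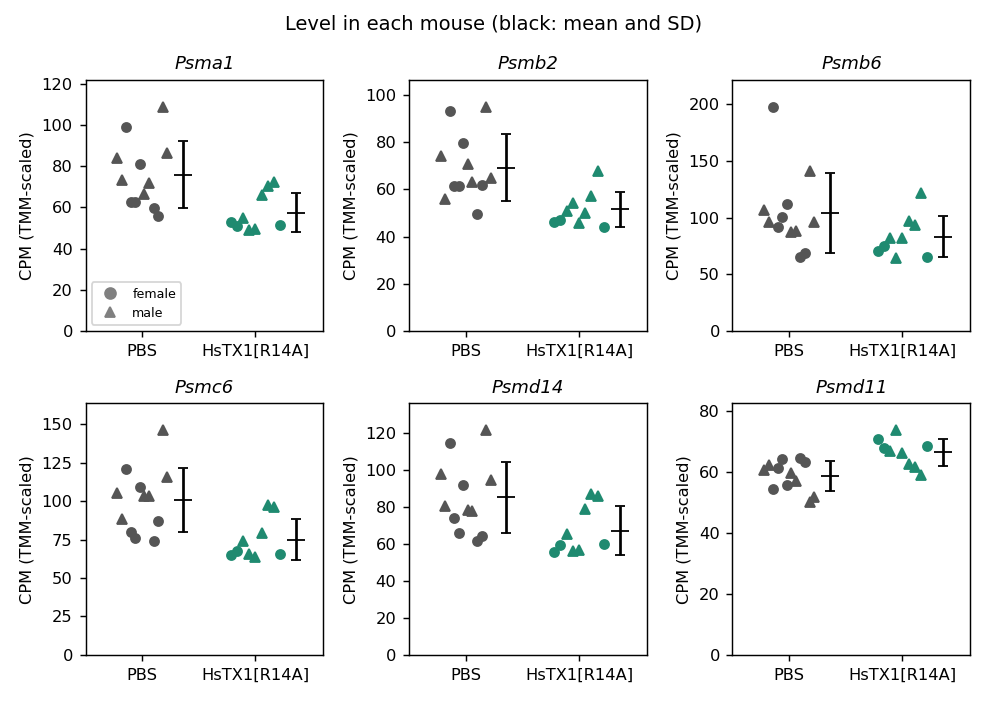
TMM-scaled CPM on the y axis for each mouse (circles: females, triangles: males) by treatment on the x axis, with the mean and SD in black. Psma1, Psmb2, Psmc6 and Psmd14 were lower in HsTX1[R14A] mice and Psmd11 was higher, with overlapping ranges in all panels, and Psmb6 did not pass the threshold.

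The ATPase ring of the base, which unfolds substrates and feeds them into the core, held 1 gene of 6 that fell, near the 16.1% of all genes called lower. Psmc6 (ENSMUSG00000021832, GRCm38 chromosome 14 from 45329788 to 45349705) had the smallest p of all members. It ranged from 74.0 to 146 CPM in PBS mice (median 103) and from 63.6 to 97.9 CPM in HsTX1[R14A] mice (median 67.3), and all 9 treated mice lay below the PBS median. The log2 fold change was -0.47 (SE 0.11, edgeR adjusted p = 0.0151), about the size seen in the core. The other ATPases had log2 fold changes from -0.28 in Psmc5 to -0.10 in Psmc2, with Psmc1 at -0.18, Psmc3 at -0.17 and Psmc4 at -0.14, and none of these passed (adjusted p from 0.0909 to 0.394). Psmc3 shares 215 exonic bases with Slc39a13 on the opposite strand.

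The large scaffold subunits of the base, which dock ubiquitin receptors and shuttle proteins, did not pass the threshold. Psmd1 had a log2 fold change of -0.04 (adjusted p = 0.567), and 301 of its exonic bases overlap Gm21972 on the same strand. Psmd2 ranged from 117 to 158 CPM with PBS (median 125) and from 127 to 168 CPM with HsTX1[R14A] (median 146), and 0 of the 9 treated mice lay below the PBS median. Its log2 fold change of 0.17 missed the threshold (SE 0.07, edgeR adjusted p = 0.0581) but passed in DESeq2 (adjusted p = 0.0244). Psmd4, a ubiquitin receptor of the base and 1 of the genes whose upstream bases are shown, ranged from 88.8 to 142 CPM (median 107) and from 83.8 to 114 CPM (median 94.5), a log2 fold change of -0.19 (SE 0.08, edgeR adjusted p = 0.0689).

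The lid was divided, with 4 of its 8 genes lower and 2 higher, beside 16.1% and 15.5% of all genes. Psmd14, the metalloprotease that cuts the ubiquitin chain from the substrate, ranged from 61.5 to 121 CPM in PBS mice (median 79.4) and from 55.9 to 87.1 CPM in HsTX1[R14A] mice (median 60.0), a log2 fold change of -0.38 (SE 0.12, edgeR adjusted p = 0.0261). Its inactive partner Psmd7 also fell (log2 fold change -0.24, adjusted p = 0.0411). Psmd12, a structural lid subunit, ranged from 69.95 to 125 CPM (median 89.9) and from 65.7 to 91.5 CPM (median 70.8), a log2 fold change of -0.33 (SE 0.10, edgeR adjusted p = 0.0208). Psmd8, the subunit that joins the lid last, ranged from 82.4 to 166 CPM (median 111) and from 75.6 to 124 CPM (median 93.0), a log2 fold change of -0.35 (SE 0.11, edgeR adjusted p = 0.0238). The structural subunits Psmd6 (-0.22, adjusted p = 0.108) and Psmd13 (-0.06, adjusted p = 0.657) did not pass, and Psmd13 shares 342 exonic bases with Sirt3 on the opposite strand.

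Both lid genes that rose encode structural subunits of the lid, as do Psmd12, which fell, and Psmd6 and Psmd13, which did not pass. Psmd11 (ENSMUSG00000017428, GRCm38 chromosome 11 from 80428615 to 80473248), a subunit known to stabilize the junction of the core with the regulatory particle, ranged from 50.3 to 64.7 CPM with PBS (median 60.3) and from 59.2 to 73.8 CPM with HsTX1[R14A] (median 67.1). In this gene 1 of the 9 treated mice lay below the PBS median. The log2 fold change was 0.19 (SE 0.05, edgeR adjusted p = 0.0206). Psmd3 had the highest fold change of the members, at 67.4 to 102 CPM with PBS (median 84.3) and 81.5 to 110 CPM with HsTX1[R14A] (median 97.7), a log2 fold change of 0.22 (SE 0.08, edgeR adjusted p = 0.0411). Here too 1 of the 9 treated mice lay below the PBS median.

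The rule also took in 4 genes that are not subunits of the finished particle. Psmd5, Psmd9 and Psmd10 encode chaperones that help to assemble the base. Psmd9 fell (log2 fold change -0.24, standard error 0.08, adjusted p = 0.0307, edgeR), Psmd10 had a log2 fold change of -0.41 that did not pass (adjusted p = 0.0633) and Psmd5 had one of 0.05 (adjusted p = 0.551). Psmc3ip encodes a meiotic recombination factor that bears the name of an ATPase it binds. It was low, at 1.56 to 5.46 CPM with PBS (median 2.93) and 1.24 to 3.14 CPM with HsTX1[R14A] (median 2.22). Its log2 fold change of -0.50, the lowest among regulatory members, did not pass (SE 0.21, edgeR adjusted p = 0.0661), and 385 of its exonic bases overlap Mlx on the opposite strand. Without these 4 genes 7 of 17 regulatory members were called, 5 lower and 2 higher, beside 31.6% of all genes, and the median was -0.18.

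The balance of the classes was read in each mouse as the ratio of summed core counts to summed regulatory counts, which depends on transcript length and is not a ratio of subunits. Core genes took from 0.0953% to 0.193% of all counts in PBS mice (median 0.12%) and from 0.0745% to 0.142% in HsTX1[R14A] mice (median 0.0984%). Regulatory genes took from 0.165% to 0.217% (median 0.175%) and from 0.151% to 0.200% (median 0.175%). The shares of the regulatory class, which were not TMM-scaled, thus had close to the same median in both groups. The TMM-scaled level differed more. The mean log2 CPM of regulatory members, centered on all mice, had a median of 0.04 in PBS and -0.19 in HsTX1[R14A] mice. For core members it was 0.05 and -0.29. The ratio ran from 0.566 to 0.888 in PBS mice (median 0.670) and from 0.493 to 0.715 in HsTX1[R14A] mice (median 0.591), and the difference in mean log2 ratio (HsTX1[R14A] minus PBS) was -0.20. The groups overlapped, with 2 of 12 PBS mice (84 and 85) under the HsTX1[R14A] median. Among libraries named SAMP8 the median ratio was 0.697 in 10 PBS mice and 0.591 in 5 HsTX1[R14A] mice, and among those named SAMP it was 0.625 in 2 PBS mice and 0.592 in 4 HsTX1[R14A] mice. The highest ratios were those of PBS mice 103 (0.888) and 90 (0.829), which also had the lowest length slopes, and the part of the slope in the ratio was not tested.

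**Figure D3:**
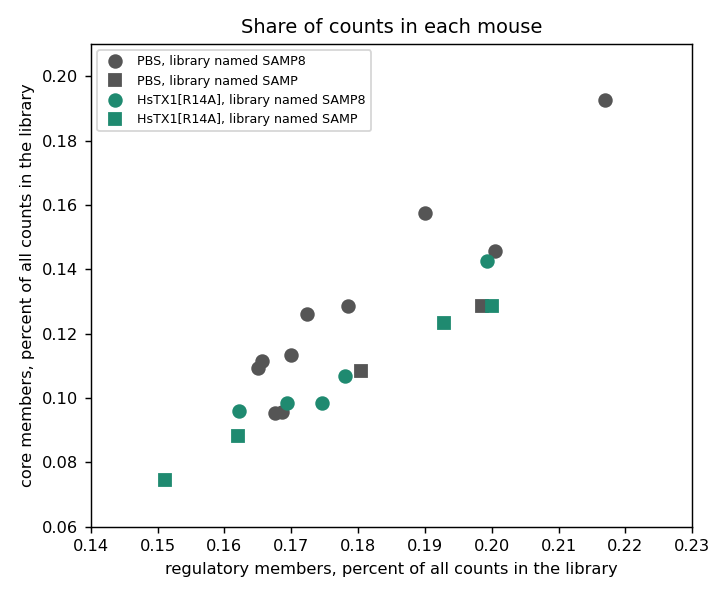
Percent of a library's counts in core genes (y axis) against percent in regulatory genes (x axis) for each of the 21 mice, by treatment (color) and form of library name (symbol). PBS mouse 103 lies at the top right with 0.193% core counts and HsTX1[R14A] mouse 81 at the bottom left with 0.0745%.

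Core genes varied together between mice of the same group. Deviations of log2 CPM from the means of the 4 treatment and sex groups were compared over the 21 mice for members of at least 1 CPM, and these are descriptions over genes that share libraries. The median pairwise Pearson r was 0.94 among the 14 core genes (91 pairs, lowest 0.65), 0.73 among the 21 regulatory genes (210 pairs, from -0.89 to 0.97) and 0.0027 over all genes of at least 1 CPM. Each member was also set against the mean of the other core members, and r was above 0.9 for 13 of the 14 core genes and for 8 of the 21 regulatory genes. The exception in the core was Psmb2 (r = 0.81). Psmd3 (r = -0.81), Psmd11 (r = -0.80) and Psmd2 (r = -0.23) moved against the core, and these were also 3 of the 4 members with a log2 fold change above 0. The library with the lowest length slope, that of PBS mouse 103, had the highest core level. The part of the slope in these correlations was not tested. Mouse to mouse, core genes varied more than regulatory genes, with a median SD within groups of 0.33 on the log2 scale against 0.22 and 0.26 over all genes of at least 1 CPM. Psmd11 (SD 0.11) and Psmd1 (SD 0.11) were the steadiest members and Psma2 (SD 0.42) and Psma7 (SD 0.42) among the most variable.

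Levels between genes were compared per kilobase of the longest annotated transcript, which need not be the form expressed in the brain. The mean PBS level was highest for the ATPase gene Psmc5 (115 CPM per kb), the catalytic gene Psmb6 (108) and the ATPase gene Psmc1 (96.7). By part, the median was 75.3 CPM per kb in the beta ring, 55.2 in the alpha ring, 61.0 in the ATPase ring, 49.8 for Psmd1, Psmd2 and Psmd4, 44.1 in the lid and 10.2 for the assembly chaperones. Psmd11 had the lowest level of the subunits in the finished brain particle, at 19.8 CPM per kb. The levels of Psmc5 and Psmb6 differed by less than the spread between mice, since the coefficient of variation among PBS mice was 22.7% for Psmc5 and 33.9% for Psmb6. Its median was 25.8% in core genes and 15.6% in regulatory genes.

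Fold changes were set against transcript length. The longest annotated transcript had a median of 1239 bases in core genes, 1983 in regulatory genes and 3283.5 over all genes. Across genes, which are not independent replicates, Pearson's r of the log2 fold change with log2 length was 0.70 (Spearman's rho 0.68) over the 21 regulatory members, -0.23 (rho -0.15) over the 15 core members and 0.50 (rho 0.51) over the 16224 genes with a length. The longest annotated transcripts of Psmd11, Psmd3 and Psmd2 have 2975, 2894 and 3001 bases. Those of the core genes Psma2, Psma3 and Psmb2 have 2911, 2846 and 859 bases. The longest transcript of any kind was taken for each gene. Whether it is the form expressed in the brain was not checked, so the r values, that of the 15 core members among them, are uncertain. With the length slope in the model the log2 fold changes were 0.07 for Psma2, 0.04 for Psma3, 0.08 for Psmd11, 0.02 for Psmd3 and 0.09 for Psmd2, and none of these passed. Psmb2 stayed below 0 in all 37 alternative fits, with a highest value of -0.07, but it was not called with the slope in the model. The called members Psma1, Psma4, Psmc6, Psmd7, Psmd8, Psmd9, Psmd12 and Psmd14 also stayed below 0 in all 37. The highest value of Psmc6 was -0.14. Of these fits 21 left out 1 mouse each and share most mice.

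**Figure D4:**
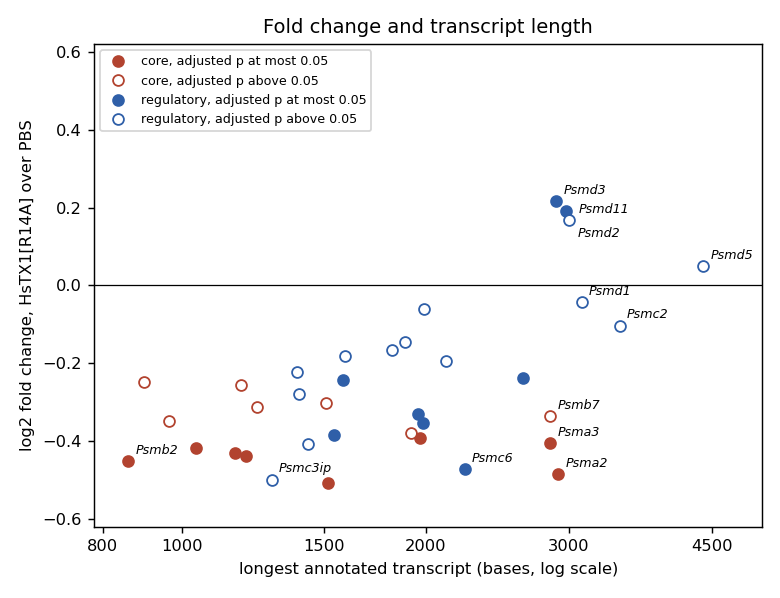
Log2 fold change (y axis) against the length of the longest annotated transcript in bases (x axis, log scale) for the 36 members, in red for core and blue for regulatory genes (filled: adjusted p at most 0.05). The regulatory members rise from short to long transcripts (Pearson's r 0.70 over 21 genes), and r is -0.23 over the 15 core members.

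Across mice, the libraries with the lowest slopes had the highest core levels. The mean log2 CPM of the core genes, centered on all mice, was 0.84 in PBS mouse 103 (slope -0.384) and 0.67 in PBS mouse 90 (slope -0.337), and it was -0.49 in HsTX1[R14A] mouse 81 (slope 0.200) and -0.44 in HsTX1[R14A] mouse 98 (slope 0.234). HsTX1[R14A] mouse 93, the treated mouse with the lowest slope (-0.142), also had the highest core level of its group (0.27). Regulatory genes had a smaller range, from -0.26 in mouse 81 to 0.41 in mouse 103. When a trend of counts with the length and GC content of transcripts was taken out of each library, 1 member was called, Psmd11 (log2 fold change 0.42, adjusted p = 0.0135, edgeR), beside 15.3% of all genes, and 12 of 15 core members stayed below 0 with a median of -0.06. The part of the slope in the fold changes of the core genes was not tested beyond these fits.

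**Figure D5:**
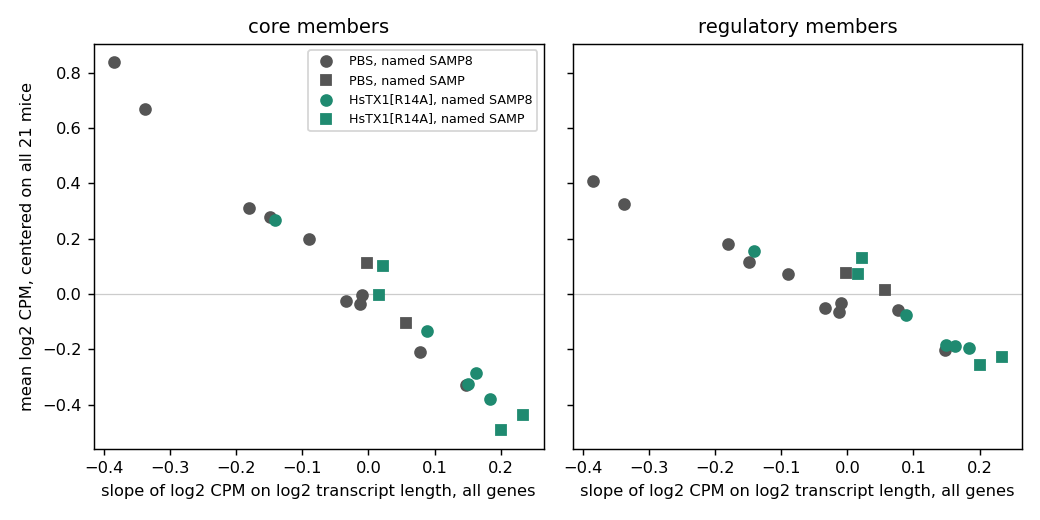
Mean centered log2 CPM of the core members (left) and regulatory members (right) on the y axis against the library's length slope (log2 CPM per log2 base) on the x axis, 1 point per mouse, by treatment (color) and form of library name (symbol). The points descend from PBS mouse 103 at the upper left (0.84 and 0.41) to HsTX1[R14A] mice 81 and 98 at the lower right.

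Some markers of brain cell types were called between treatments too. Over all genes 16.1% were called lower and 15.5% higher. Of the marker genes, 3 of 4 for oligodendrocytes were called lower, and their sum ran from 3910 to 6265 CPM in PBS mice and from 3055 to 4425 CPM in HsTX1[R14A] mice. Called lower were also 3 of 4 for astrocytes (1347 to 2073 and 1229 to 1706 CPM), 2 of 4 for ependyma (9.42 to 24.9 and 5.97 to 15.4 CPM) and 1 of 5 for microglia (327 to 468 and 275 to 411 CPM). Called higher were 1 of 5 for neurons (3327 to 6184 and 4232 to 7064 CPM) and 1 of 4 for endothelium (46.6 to 84.6 and 55.3 to 96.3 CPM), and 0 of 5 were called for choroid plexus (67.3 to 1119 and 57.6 to 826 CPM) and 0 of 5 for erythrocytes (5.82 to 157 and 15.1 to 87.6 CPM). All of the listed markers were in the table, and their part in the proteasome result was not tested.

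Within each sex core members had the direction of the pooled fit. The core median was -0.54 in females (3 HsTX1[R14A] against 6 PBS) and -0.32 in males (6 against 6), with all 15 core members below 0 in both. In regulatory members it was -0.29 and -0.12. In edgeR 0 members were called in females (7 had an unadjusted p under 0.05, with 20.4% of all genes) and 0 in males (10, with 27.6%). For the difference between the sexes in the effect of treatment 0 members were called, beside 0% of all genes, and 0 members had an unadjusted p under 0.05, beside 1.66% of all genes (limma/voom also called 0). Between males and females 0 members were called beside 0.0552% of all genes, 0.0307% higher and 0.0245% lower in males (limma/voom and DESeq2 also called 0), and Psmc6 alone had an unadjusted p under 0.05. The fitted level was higher in males for 33 of the 36 members, with a median of 0.15 on the log2 scale.

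Genes that work with the proteasome were followed through a list of 33 genes, of which 32 were found, Paaf1 was not used here, and Sem1 and Ecpas were matched by the older symbols Shfm1 and AI314180. Of the 32, 10 fell and 3 rose, beside 16.1% lower and 15.5% higher over all genes. All 3 immunoproteasome subunits, which replace the catalytic subunits in immune cells and after interferon, fell. Psmb8 ranged from 2.35 to 5.04 CPM with PBS (median 3.14) and from 1.54 to 3.03 CPM with HsTX1[R14A] (median 2.35), a log2 fold change of -0.53 (SE 0.14, edgeR adjusted p = 0.0171). Psmb9 ranged from 0.948 to 2.34 CPM (median 1.62) and from 0.695 to 1.62 CPM (median 1.17), a log2 fold change of -0.51 (SE 0.17, edgeR adjusted p = 0.031). All 9 treated mice lay below the PBS median for both genes. Psmb10 ranged from 17.98 to 39.5 CPM (median 26.6) and from 18.2 to 31.1 CPM (median 19.5), a log2 fold change of -0.41 (SE 0.13, edgeR adjusted p = 0.0255). The levels of Psmb8 and Psmb9 are low, and Psmb9 shares 212 exonic bases with Tap1 on the opposite strand. Microglial marker sums were lower with treatment, as given above, with overlapping ranges and 1 of 5 markers called. Their part in the immunoproteasome result was not tested.

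Of the 5 core assembly genes 1 fell, near the 16.1% of all genes called lower. Pomp, the chaperone of core assembly that becomes the first substrate of the finished particle, ranged from 68.7 to 149 CPM with PBS (median 93.4) and from 59.3 to 105 CPM with HsTX1[R14A] (median 67.8), a log2 fold change of -0.49 (SE 0.13, edgeR adjusted p = 0.0172). Psmg1, Psmg2, Psmg3 and Psmg4 had log2 fold changes from -0.50 to -0.11 and did not pass. Of the activators and the inhibitor, Psme2 fell (-0.45, adjusted p = 0.0393) and Psme1, Psme3, Psme4 and Psmf1 did not pass. Uchl5, a deubiquitinase bound to the base, ranged from 34.3 to 55.0 CPM (median 43.9) and from 30.9 to 45.1 CPM (median 35.9), a log2 fold change of -0.31 (SE 0.08, edgeR adjusted p = 0.0175). The small lid subunit Shfm1 fell (-0.46, adjusted p = 0.0465), Ube3c, a ligase that extends chains on the proteasome, rose (0.17, adjusted p = 0.0281), and Adrm1, the receptor of the base to which Uchl5 binds, did not pass (0.04, adjusted p = 0.513).

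Genes that encode ubiquitin were also listed. Rps27a, which encodes ubiquitin fused to a ribosomal protein, ranged from 160 to 480.0 CPM with PBS (median 246) and from 88.2 to 257 CPM with HsTX1[R14A] (median 137), a log2 fold change of -0.79 (SE 0.21, edgeR adjusted p = 0.0186). The polyubiquitin gene Ubb fell as well (-0.33, adjusted p = 0.0336). Shuttle factors, which carry ubiquitinated proteins to the proteasome, had log2 fold changes above 0 in 6 of 6 genes, from 0.01 to 0.51. Over all genes 51.4% were below 0. In females 3 of the 6 were below 0, beside 8362 of 16209 genes. In the pooled fit 1 of the 6, Ubqln2, rose (0.51, standard error 0.15, adjusted p = 0.0211, edgeR). That count is near the 15.5% of all genes called higher. Nfe2l1 is the factor that raises subunit genes. The core of its binding element stood upstream of Psmb5, Psmb6, Psmc6, Psmd9 and Psmd12, which is 17.2% of the member genes beside 13.99% of all genes. Nfe2l1 ranged from 204 to 336 CPM with PBS (median 271) and from 260.2 to 377 CPM with HsTX1[R14A] (median 324). Its log2 fold change was 0.25 (SE 0.08, edgeR adjusted p = 0.0302), and it was -0.06 (adjusted p = 0.557) with the trend with length and GC content taken out. Nfe2l2 did not pass (-0.12, adjusted p = 0.278).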

How the data were processed

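RNA from whole brain of 21 SAMP8 mice was sequenced, and the deposited table holds estimated counts per gene, which the authors made with STAR on GRCm38 and Salmon. Values were rounded before use, and 90.5% of them were whole to within 0.01. The labels name a SMARTER mRNA kit and the study's methods a directional MGI kit, so it is unsettled whether reads on opposite strands can be told apart in overlapping genes. The strand setting of the counting and the versions of these tools are not given in the sources used here. Columns of the authors' own comparisons (log2 fold changes, P values and FDR) and 53 per-sample columns, 16 of them counts of other libraries, were not used. Depth ranged from 14917174 to 47613792 counts per mouse, so the precision of low genes such as Psma8 is limited by counting. Each mouse was 1 replicate, and in 48 pairs of mice of the same group the mean chi-square per gene was 7.58 or more, so that no pair agreed within sampling noise.

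Genes with enough counts in the 4 treatment and sex groups (filterByExpr) were kept, 16303 of 16318. The main test was the quasi-likelihood test of edgeR 4.0.16 in R 4.3.3 with TMM scaling and the terms sex and treatment, with Benjamini-Hochberg adjustment over all genes and a threshold of 0.05. Standard errors were the log2 fold change divided by the square root of F. For log2 CPM the prior count was 2. limma 3.58.1, DESeq2 1.42.0, sva 3.50.0 (1 surrogate variable), other scalings and filters, covariates, subsets and a loess correction (span 0.5) for the length and GC content of transcripts were alternatives. Transcript length was known for 16224 genes (99.5%). The steps were tested on simulated data for the treatment comparison, where 177 of 200 genes changed 2-fold were recovered with 9 false calls among 16292 genes.

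Members, gene lists, motifs and tests were chosen with earlier results of these data known. Every member is named. Full values are given for the 4 members of each class with the smallest p, the highest and lowest log2 fold change of each class, Psmb5, Psmb6, Psmb7, Psmd14 and Psmd4, and, of the related genes, for Psmb8, Psmb9, Psmb10, Nfe2l1 and the 4 with the smallest p. Psmd2, the next member above 0, was added after its values were seen. Some genes of the related list are counted but not reported here by name.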

Additional observations from a re-analysis of the deposited data

Results flagged for a closer look

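Dixon's criterion was applied in groups of 6 mice of 1 treatment and sex. The highest or lowest mouse stood apart from the others in 11 of 117 groups tested (9.40%). Chance gives about 1 in 20 when groups are independent. These groups reuse the same mice for genes that varied together, so the share cannot be set against it. All 11 were high values of PBS mouse 103 among PBS females or PBS mouse 90 among PBS males. In PBS mouse 103 these were Psmb6 at 197 CPM, Psmb5 at 104 CPM and Psmb4 at 139 CPM in the beta ring, and Psmd4 at 142 CPM, Psmd6 at 75.1 CPM and Psmd10 at 35.8 CPM among regulatory members. The share of core counts in this mouse was 0.193% and that of regulatory counts 0.217%. In PBS mouse 90 they were Psma2 at 161 CPM, Psma5 at 87.0 CPM and Psmb6 at 141 CPM.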

How the results depend on the processing

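The main model called 16 members, 8 core and 8 regulatory, and 13 related genes, beside 31.6% of all genes. In the same order, the counts were 8, 3, 5 and 8 without the sex term (18.3% of all genes), 6, 3, 3 and 5 with the form of the library name as a covariate (12.3%), 9, 4, 5 and 6 with 1 surrogate variable (14.7%), 1, 0, 1 and 5 with the trend with length and GC content taken out (15.3%), and 7, 3, 4 and 7 without PBS mice 90 and 103 (17.7%), a setting chosen after seeing the data. All 4 counts were 0 in edgeR with the length slope as a covariate (4 members with an unadjusted p under 0.05), in the 6 mice named SAMP (0), in the 15 mice named SAMP8 (15), in females (7) and in males (10), each beside 0% of all genes, and other tools were not run in these. With 1 mouse left out, the counts ran from 6 to 23 members, 3 to 10 core, 3 to 13 regulatory and 5 to 18 related, with the fewest members without PBS mouse 90 and the most without HsTX1[R14A] mouse 93. The core median then ran from -0.44 to -0.31 and the regulatory median from -0.23 to -0.15. The core and regulatory medians were -0.14 and -0.05 with 1 surrogate variable, -0.23 and -0.12 with sample quality weights (6 core and 10 regulatory members called, 34.7% of all genes), and -0.06 and -0.02 with the trend taken out. With the length slope as a covariate the medians reversed to 0.0684 (core) and 0.0644 (regulatory), with 4 of 15 core and 6 of 21 regulatory members below 0. Of the genes called in the main model, those that reversed were Psma2 (0.0684), Psma3 (0.0449), Psma6 (0.0325), Psma7 (0.0558), Psmb1 (0.0733), Psme2 (0.0308) and Shfm1 (0.0716). With the trend taken out Uchl5 (0.0250) and Nfe2l1 (-0.0556) reversed. The fits on subsets held fewer mice, and the cause was not tested for the other changes. The ratio of core to regulatory counts kept its direction in 3 of 3 alternatives, which changed only the genes summed or used mean log2 CPM, and it was not recomputed with the length slope, the name form or left-out mice. No paired analysis was possible because each mouse has a number of its own, and no number is shared between groups.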
